A study of Artemisia argyi with 3 samples.

Results

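Sequencing of *A. argyi* roots, leaves and stems gave a set of 57 unigenes with far more transcript per length in roots than in the shoot tissues, and that set is described here. The unigenes were selected on the measured expression values themselves. Each was above 1 FPKM (fragments scaled by unigene length and by how many fragments of the library mapped) in all 3 tissues, and its FPKM in roots was more than 8 times that in leaves and more than 8 times that in stems, with no pseudocount. Of the 88591 unigenes in the expression table, 24505 were above 1 FPKM in all 3 tissues, and 63 of these, or 0.257%, passed the fold criterion. The 6 unigenes left out of the 63 were the 4 passing contigs of cluster CL48, Unigene15525, and CL11002.Contig2, which was cloned in the study as ArHMGR2 and encodes hydroxymethylglutaryl-CoA reductase, the enzyme that forms mevalonate. The same criterion was passed by 84 unigenes in leaves and by 106 in stems. Because the root, leaf and stem values chose the unigenes, the high root level is a description of the set and not a test of it.

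*A. argyi* is a mugwort of the Compositae, and the plants were mature, garden-grown individuals of this species without any named cultivar or genotype. The roots, leaves and stems of 5 plants were pooled by tissue before sequencing, so there was 1 library per tissue and no replicate. No spread between plants can be given, no test between tissues was possible, and each difference below compares single libraries. Tissue markers were not checked, because the table names its unigenes by identifier alone. In bulk tissue, fewer cells of a type and less RNA per cell cannot be told apart.

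Roots anchor the plant and take up water and mineral ions, and they do so without the photosynthetic tissue that dominates leaves. Stems hold vascular tissue, xylem and phloem, that runs on from the root and into the leaf veins. In the Compositae, roots are also known as sites where specialised metabolites such as polyacetylenes and sesquiterpenes accumulate. In a de novo assembly, a unigene is a reconstructed transcript. Unigenes prefixed CL are contigs of a cluster of similar sequences, which can be splice forms, alleles or close gene copies, whereas those prefixed Unigene are singletons. FPKM is scaled by length, so levels of different unigenes can be compared. Neither a gene name nor a function was attached to any of the 57 in the sources used here.

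The set covered a wide range of root expression. Root FPKM had a median of 84.7 with quartiles of 49.7 and 176, and extended from 13.2 for Unigene8911, named after its values were seen, to 5750 for CL10745.Contig3. In leaves the median of the same unigenes was 2.58 FPKM, between 1.02 and 106, and in stems it was 5.33 FPKM, between 1.14 and 382. The 24505 unigenes above 1 FPKM in all 3 tissues had medians of 5 FPKM in roots, 7.77 in leaves and 7.97 in stems. The root values of the set lay mostly in the upper part of the root library. This was set by the criteria, since every root value had to exceed 8 FPKM, above the shared median of 5. Leaf and stem values of the set lay mostly below the typical shared unigene. Above 100 FPKM in roots were 27 of the 57, against 1134 of the 88591 unigenes in the whole table. The whole table includes unigenes that the floor and the fold criterion exclude, so this difference too was set partly by the criteria. Leaf FPKM was below 2 for 23 of the 57 and stem FPKM for 9, and 6 were below 2 in both. At the other end, 7 were above 10 FPKM in leaves and in stems. For comparison, the shared unigenes had quartiles of 3.53 and 19.2 FPKM in leaves and 3.65 and 20.4 FPKM in stems. Shares of the shared unigenes at these limits were not counted.

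**Figure D1:**
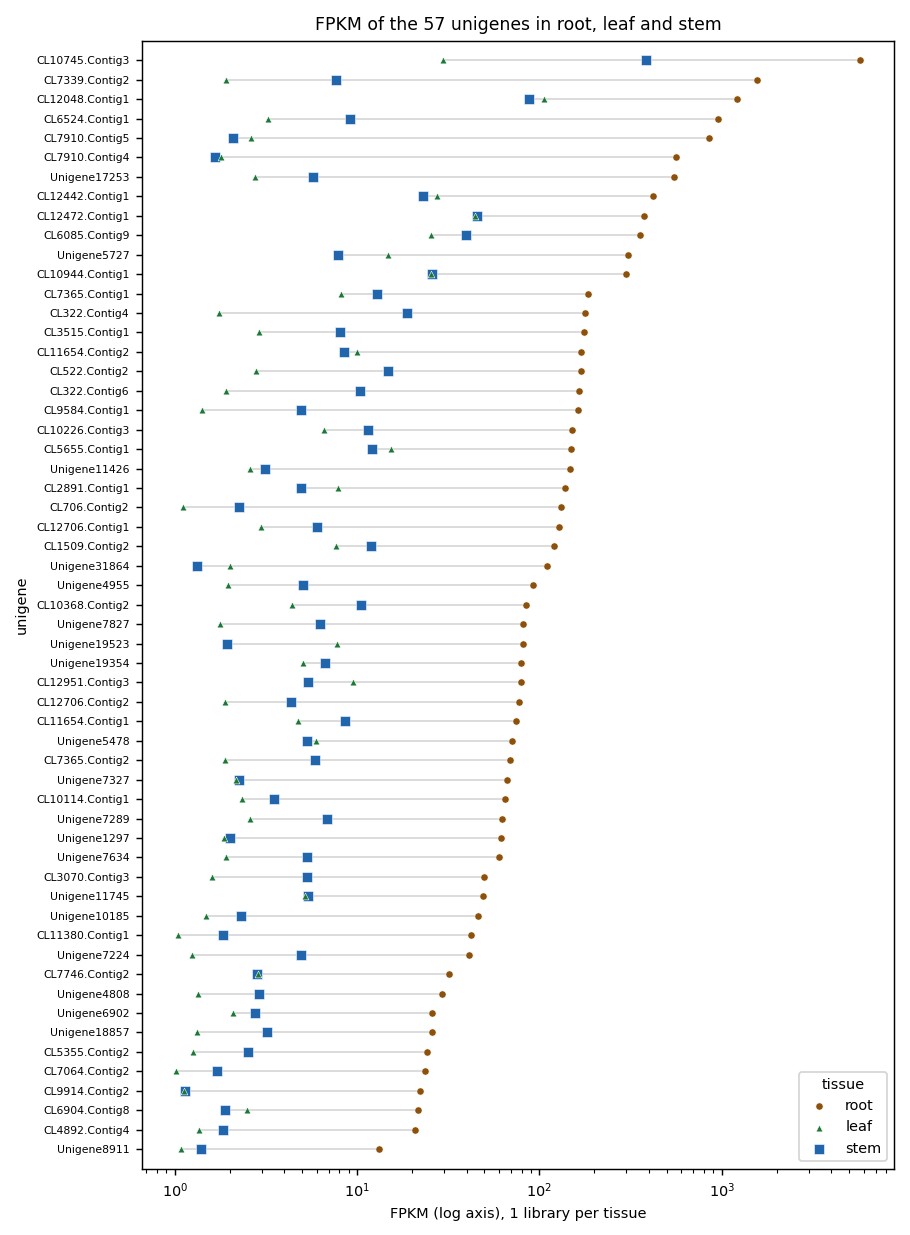
FPKM of the 57 unigenes in root (circles), leaf (triangles) and stem (squares) on a log axis, 1 library per tissue, ordered by root FPKM. Root FPKM runs from 5750 at the top to 13.2 at the bottom, while the leaf and stem values mostly lie between 1 and 10.

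The set took 2.49% of the FPKM sum of the root library, 0.0594% of that of the leaf library and 0.122% of that of the stem library. This share was concentrated in few unigenes. CL10745.Contig3 alone held 33.7% of the set's root FPKM, the 10 highest unigenes together held 73.8%, and without CL10745.Contig3 the set held 1.65% of the root library.

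CL10745.Contig3 had 5750 FPKM in roots, against 29.7 in leaves and 382 in stems, and ranked 2 among all unigenes of the root library. It was also the highest of the set in stems, where it stood at 6.65% of its root level, compared with 0.516% in leaves. CL7339.Contig2, which ranked 15 in roots, had 1553 FPKM there, against 1.91 in leaves and 7.65 in stems. CL12048.Contig1 was the third unigene above 1000 FPKM, with 1209 in roots, against 106 in leaves and 87.9 in stems. The first pair were far lower in leaves relative to roots than CL12048.Contig1, which kept 8.76% of its root level in leaves and 7.27% in stems.

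CL6524.Contig1 followed with 957 FPKM in roots, against 3.25 in leaves and 9.10 in stems. Among singletons the highest was Unigene17253, with 550 FPKM in roots, against 2.75 in leaves and 5.76 in stems. Unigene17253 and CL6524.Contig1 both stayed at about 1% of their root level or less in each shoot tissue. CL12442.Contig1 had 419 FPKM in roots, against 27.6 in leaves and 22.9 in stems. CL12472.Contig1 had 374 FPKM in roots, against 44.2 in leaves and 45.4 in stems. CL6085.Contig9 had 356 FPKM in roots, against 25.4 in leaves and 39.8 in stems. These 3 contigs were thus abundant in roots and also well above the typical shared unigene in both shoot tissues.

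Root FPKM exceeded leaf FPKM by a median of 23.1-fold over the set, with quartiles of 15.2 and 47.2, and stem FPKM by a median of 13.8-fold, with quartiles of 10.1 and 23.2. Over all 24505 shared unigenes the median ratios were 0.694 for roots over leaves and 0.704 for roots over stems. The smaller of the 2 folds was the fold over stems for 43 of the 57 unigenes and the fold over leaves for 14. This smaller fold had a median of 13.1. It was above 20 for 15 unigenes, above 50 for 7 and above 100 for 4, and 16 unigenes were at 10 or less.

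**Figure D2:**
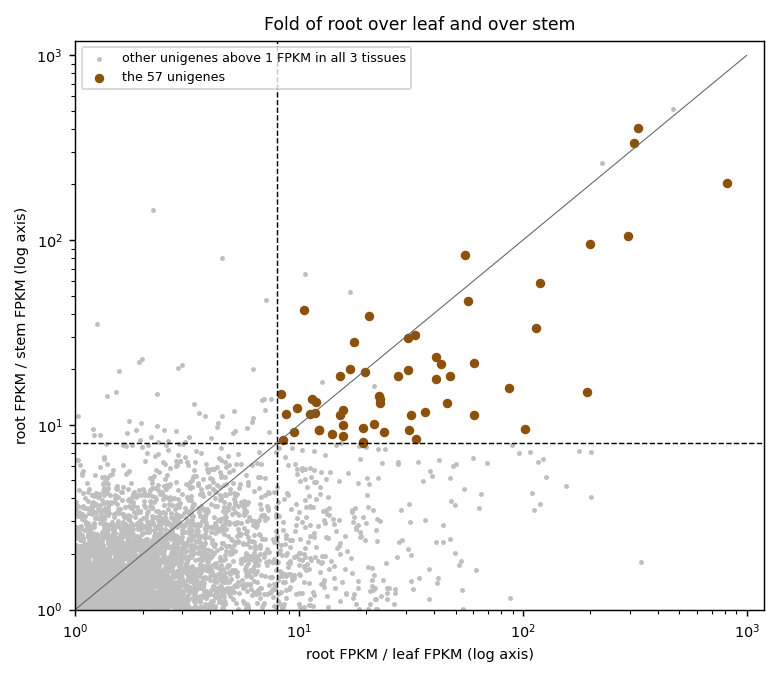
Fold of root over leaf FPKM (x axis) and of root over stem FPKM (y axis), both on log axes, for unigenes above 1 FPKM in all 3 tissues and higher in root than in both other tissues. Dashed lines mark the 8-fold criterion, grey points in the upper right are the 6 unigenes left out, and 43 of the 57 brown points lie below the line of equal folds.

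The 4 unigenes above 100-fold belonged to 3 clusters. CL7910.Contig5 had the largest smaller fold of the set, with 850 FPKM in roots, against 2.61 in leaves and 2.10 in stems, which is 326-fold over leaves and 405-fold over stems. CL7910.Contig4, of the same cluster, was 313-fold over leaves and 337-fold over stems. CL7339.Contig2 was 813-fold over leaves, the largest fold over leaves among all 24505 shared unigenes, and 203-fold over stems. CL6524.Contig1 was 295-fold over leaves and 105-fold over stems. Fold and abundance thus did not go together throughout, since CL10745.Contig3 with the highest root level was 194-fold over leaves but only 15.0-fold over stems.

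The next 6 by smaller fold were lower in roots. Unigene17253 was 200-fold over leaves and 95.6-fold over stems. CL706.Contig2 had 132 FPKM in roots, against 1.11 in leaves and 2.24 in stems. Unigene31864 had 110 FPKM in roots, against 2 in leaves and 1.32 in stems. In CL706.Contig2 and Unigene31864, a shoot value lay close to the floor of 1 FPKM, where the fold depends most on the size of the shoot value. Larger folds also rested on low shoot values. CL7339.Contig2 had 1.91 FPKM in leaves, and CL7910.Contig4 had 1.80 in leaves and 1.67 in stems.

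Unigene11426 had 146 FPKM in roots, against 2.58 in leaves and 3.12 in stems. CL9584.Contig1 had 163 FPKM in roots, against 1.42 in leaves and 4.90 in stems. Unigene1297 had 61.4 FPKM in roots, against 1.86 in leaves and 2.01 in stems. Their smaller folds were 46.9, 33.2 and 30.5, in the order given.

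At the threshold the set had no natural edge. Unigene18857 was just inside, with 25.7 FPKM in roots, against 1.33 in leaves and 3.20 in stems, an 8.02-fold difference from stems. CL10368.Contig2 was inside at 8.05-fold and CL12472.Contig1 at 8.24-fold. CL10374.Contig1 was just outside at 7.98-fold over stems, with 30.0 FPKM in roots, against 1.95 in leaves and 3.76 in stems. CL10944.Contig2, at 7.77-fold, and CL322.Contig9, at 7.75-fold, were outside although a contig of their own cluster was inside. Values are deposited to 2 decimals, and the effect of a shift by up to 0.005 FPKM was checked on the fold alone. Such a shift took 0 of the 57 to 8-fold or below. It lifted 0 of the shared unigenes that had missed the fold criterion past it. Unigenes listed at the floor of 1 FPKM were not part of this check, so whether rounding kept any of them out is unknown.

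The floor of 1 FPKM in leaves and stems also shaped the set. Without that floor, 9368 unigenes above 1 FPKM in roots were more than 8 times higher there than in both shoot tissues, and 8235 of these were listed at 0 in leaves and stems. Above 13.2 FPKM in roots, the lowest root level of the set, there were 386 such unigenes, and 324 of them did not exceed 1 FPKM in leaves or in stems. At higher root levels the floor removed a smaller part. Without it, 70 unigenes above 100 FPKM in roots were more than 8 times higher there than in each shoot tissue. In 37 of the 70 the leaf or the stem value did not exceed 1 FPKM, and 4 were listed at 0 in at least one of the shoot tissues.

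Leaf and stem levels of the set were compared with each other, since no criterion set one of these tissues against the other. Both values did enter the criteria, so the comparison is given as counts without a test. Leaf FPKM was below stem FPKM for 43 of the 57 unigenes, or 75.4%, whereas 46.7% of the 24505 shared unigenes were higher in stems than in leaves. Leaf FPKM was at least 2 times stem FPKM for 1 of the 57 (1.75%), against 17.1% of the shared unigenes. In the other direction, stem FPKM was at least 2 times leaf FPKM for 23 (40.4%), against 17.7%. The remaining 33 lay within 2-fold. The shared unigenes were not matched to the set for level. Their medians were 7.77 FPKM in leaves and 7.97 in stems, against 2.58 and 5.33 in the set. With a pseudocount of 1, stem was at least 2 times leaf for 16 of the 57, and the share of the shared unigenes was not counted. The median ratio of leaf to stem was 0.639 in the set and 1.05 over the shared unigenes.

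A nearer comparison is with the 4183 shared unigenes that were highest in roots without passing 8-fold over both other tissues. Among these, leaf was at least 2 times stem in 7.2% and stem at least 2 times leaf in 20.5%, and the median ratio of leaf to stem was 0.906. The counts of the set thus leaned further towards stem than those of the other root-high unigenes, a difference that was not tested.

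The unigenes that leaned most towards stem included the most abundant one. CL10745.Contig3 had a leaf to stem ratio of 0.0776. CL322.Contig4 had 178 FPKM in roots, against 1.75 in leaves and 18.8 in stems, and a leaf to stem ratio of 0.0930. CL322.Contig6 had 165 FPKM in roots, against 1.90 in leaves and 10.4 in stems. CL522.Contig2 had 169 FPKM in roots, against 2.80 in leaves and 14.9 in stems. Together with CL7339.Contig2 these were the 5 unigenes with at least 4 times more FPKM in stems than in leaves, and 2 of the 5 are contigs of 1 cluster.

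In the opposite direction Unigene19523 stood alone, with 81.5 FPKM in roots, against 7.77 in leaves and 1.94 in stems, a leaf to stem ratio of 4.01. The next was Unigene5727, with 305 FPKM in roots, against 14.9 in leaves and 7.87 in stems, a ratio of 1.89. CL12951.Contig3 had a ratio of 1.77, CL2891.Contig1 of 1.60 and Unigene31864 of 1.52. For these, leaves rather than stems set the smaller fold.

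**Figure D3:**
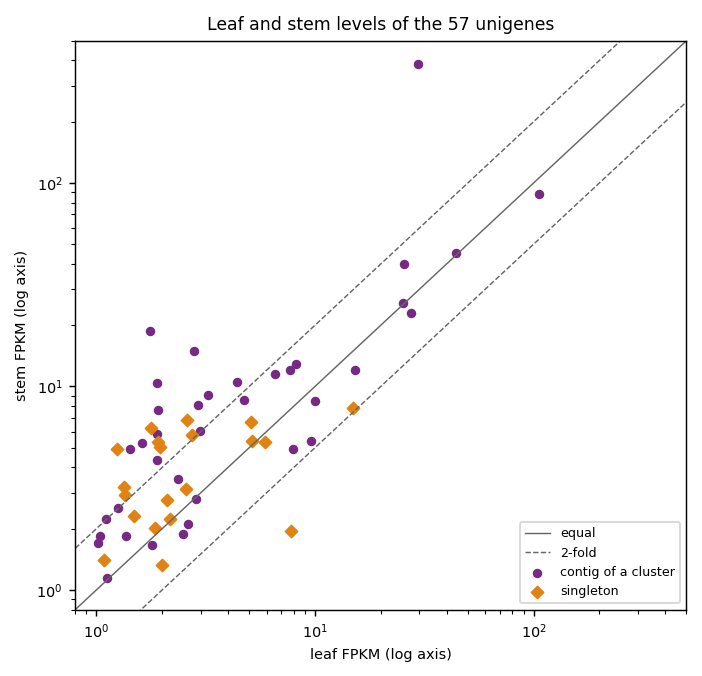
Leaf FPKM (x axis) and stem FPKM (y axis) of the 57 unigenes on log axes, with contigs of clusters as circles and singletons as diamonds. The solid line marks equal levels and the dashed lines 2-fold, above which 23 unigenes lie towards stem and below which 1 lies towards leaf.

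Across the 57 unigenes, higher root levels went with higher shoot levels. Pearson's r of log2 FPKM was 0.59 between roots and leaves, 0.69 between roots and stems and 0.77 between leaves and stems, against 0.70, 0.82 and 0.76 over the 24505 shared unigenes. Both coefficients that involve roots were lower in the set than over all shared unigenes, and the coefficient between leaves and stems was close to that over all of them. These coefficients are over unigenes, which are not independent replicates, and the selection on folds itself ties the 3 values together, so they describe the set only.

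Of the 57, 37 were contigs of 32 clusters and 20 were singletons. Singletons made up 35.1% of the set and 39.0% of all shared unigenes. The contigs of the set had a median of 149 FPKM in roots, 2.86 in leaves and 7.65 in stems, and 23 of the 37 were above 100 FPKM in roots. The singletons had medians of 64.2 FPKM in roots, 2.05 in leaves and 4.07 in stems, and 4 of the 20 were above 100. Over all shared unigenes, contigs and singletons had nearly the same median in roots, 4.99 and 5.02 FPKM. Stem FPKM was at least 2 times leaf FPKM in 15 of the 37 contigs and in 8 of the 20 singletons, so the lean towards stem was found in both.

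A total of 5 clusters contributed a pair of contigs each. In CL7910 the members were Contig5, at 850 FPKM in roots, and Contig4, at 563 FPKM in roots, against 1.80 in leaves and 1.67 in stems. Its other contigs were also highest in roots and missed the floor in leaves or stems. CL7910.Contig1 had 398 FPKM in roots, against 0.55 in leaves and 1.05 in stems, CL7910.Contig2 had 174 against 0.38 and 0.37, and CL7910.Contig3 had 10.4 in roots and was listed at 0 in both shoot tissues. Summed over its 5 contigs, CL7910 reached 1995 FPKM in roots, against 5.34 in leaves and 5.19 in stems.

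CL322, with 9 contigs, showed the same stem lean throughout its abundant contigs. CL322.Contig9 had 659 FPKM in roots, against 7.36 in leaves and 85.0 in stems, and CL322.Contig5 had 634 in roots, against 6.63 in leaves and 90.01 in stems. Both exceeded CL322.Contig4 and CL322.Contig6 in roots and were left outside by a fold over stems below 8. The remaining contigs were lower, at 26.6 FPKM or less in roots, and CL322.Contig3 was the only one higher in stems than in roots, at 1.48 FPKM in roots, against 2.09 in stems. The cluster summed to 1707 FPKM in roots, against 18.2 in leaves and 213 in stems, which is 94.0-fold and 8.02-fold.

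In CL12706 and CL7365, every contig in the table belonged to the set. CL12706.Contig1 had 129 FPKM in roots, against 2.99 in leaves and 6.04 in stems, and CL12706.Contig2 had 77.0 in roots, against 1.89 in leaves and 4.35 in stems. CL7365.Contig1 had 186 FPKM in roots, against 8.17 in leaves and 12.9 in stems, and CL7365.Contig2 had 68.7 in roots, against 1.89 in leaves and 5.85 in stems. Both contigs of each cluster were thus lower in leaves than in stems.

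CL11654 was less uniform. CL11654.Contig2 had 170 FPKM in roots, against 10.04 in leaves and 8.45 in stems, and CL11654.Contig1 had 74.4 in roots, against 4.72 in leaves and 8.58 in stems. The order of leaves and stems thus differed between these members. CL11654.Contig3 was highest in stems, with 5.18 FPKM in roots, 1.23 in leaves and 7.92 in stems.

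The other contigs of the 32 clusters, here called mates, were not chosen by the rule. They are not independent of it, because RSEM, the program that estimated expression, divides fragments that align to several contigs among them. There were 86 mates in 30 clusters. Of these, 64 had their highest FPKM in roots, or 74.4%, whereas 22.3% of the 37428 contigs of all clusters with at least 2 contigs did. CL12442 supplied 23 of the 64, and without it 41 of 62 mates, or 66.1%, were highest in roots. In 20 of the 30 clusters every mate was highest in roots, and most of these 20 clusters had a single mate. The count of 64 takes in near ties, such as CL12048.Contig2 with 2.43 FPKM in roots and 2.41 in leaves. It also takes in 14 mates listed at 0 in leaves and stems, none above 15.7 FPKM in roots. With at least 2-fold over both shoot tissues and a pseudocount of 1, 53 of the 86 mates remained. Most mates were thus highest in roots, by margins that differed widely.

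The mates missed the set for different reasons. A total of 34 were more than 8 times higher in roots than in both shoot tissues but at or below 1 FPKM in leaves or stems, and 20 of these were in CL12442. Their root FPKM had a median of 11.5, between 0.63 and 632, and the highest was CL7339.Contig1, with 632 FPKM in roots, against 0.71 in leaves and 1.28 in stems. A further 30 were highest in roots by 8-fold or less, with a median of 2.86-fold over the higher shoot tissue. The other 22 were not highest in roots, and 16 of them, from 8 clusters, were above 1 FPKM somewhere.

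Some mates were more abundant in roots than the contig that passed. This held for 10 mates in 5 clusters. CL10368.Contig1 had 442 FPKM in roots, against 21.9 in leaves and 85.7 in stems, while CL10368.Contig2 of the set had 84.7, against 4.38 and 10.5. CL9584.Contig2 had 786 FPKM in roots, against 42.5 in leaves and 103 in stems, while CL9584.Contig1 of the set had 163. In both clusters the mate was also higher in the shoot tissues and fell short of 8-fold over stems.

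**Figure D4:**
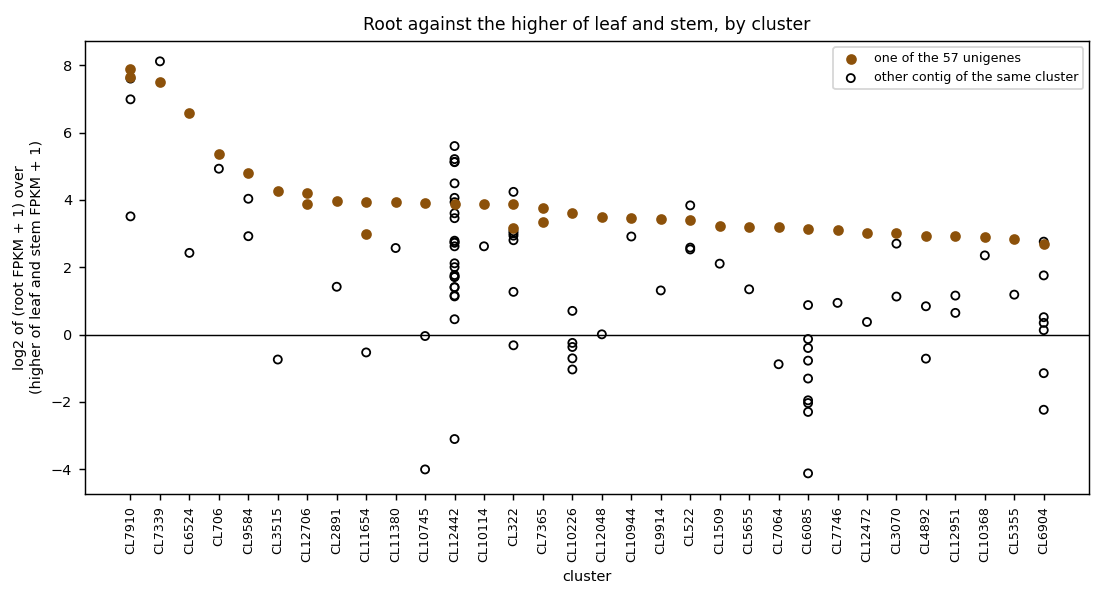
Log2 of root FPKM + 1 over the higher of leaf and stem FPKM + 1 for each contig of the 32 clusters, with the unigenes of the set filled and their mates open. Most mates lie above 0, and the open circles furthest below 0 are in CL6085, CL10745 and CL12442.

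Some of the 22 mates that were not highest in roots were abundant in another tissue. CL12442.Contig4 had 181 FPKM in roots, against 1558 in leaves and 41.6 in stems, while CL12442.Contig1 of the set had 419 FPKM in roots. All other 23 mates of CL12442 were highest in roots, and Contig4 alone made the cluster sum of 947 FPKM in roots smaller than the 1617 in leaves. CL10745.Contig1 had 11.5 FPKM in roots, against 0.34 in leaves and 200 in stems. It was therefore highest in stems, beside the most abundant root contig of the set.

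Other clusters also held mates that were not highest in roots, but CL6085 held the most. Of its 9 mates, 8 were highest in leaves, the most abundant being CL6085.Contig4 with 36.6 FPKM in roots, against 48.5 in leaves and 11.0 in stems. CL6085.Contig9 of the set was the only contig of the cluster above 100 FPKM in any tissue. In CL6904, 2 of 7 mates were not highest in roots. The member CL6904.Contig8, chosen for mention after its values were seen, had 21.6 FPKM in roots, against 2.48 in leaves and 1.89 in stems, and was exceeded in roots by mates that differed less between tissues, such as CL6904.Contig4, also named after its values were seen, with 134 FPKM in roots, against 105 in leaves and 62.2 in stems.

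Among other named clusters, CL2891.Contig2 had 59.7 FPKM in roots, against 0.28 in leaves and 21.7 in stems, whereas its clustermate in the set, CL2891.Contig1, had 138 in roots, against 7.89 in leaves and 4.93 in stems. The 2 contigs thus had leaf and stem in opposite order. CL706.Contig1 had 52.2 FPKM in roots, against 0.75 in leaves and 0.71 in stems, and CL522.Contig4 had 155 in roots, against 6.62 in leaves and 25.04 in stems. CL12472.Contig2, by contrast, had 323 FPKM in roots, against 249 in leaves and 97.8 in stems, and CL12951.Contig1 had 53.5, against 23.4 and 9.41. CL12048.Contig2 and CL6524.Contig2 were low, with 2.43 and 4.38 FPKM in roots.

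Sums over the listed contigs of a cluster depend less than single values on how fragments were divided within it. The contig numbers of CL12442 have a gap, so the listed contigs need not be all contigs of a cluster. By these sums 17 of the 32 clusters, or 53.1%, passed the same criterion, against 0.226% of the 11954 clusters with at least 2 contigs. The clusters were chosen because a contig passed, so this share is raised by the choice and is no test of the set. In CL12706 and CL7365 every listed contig belonged to the set, so their sums had to pass. Of the 30 clusters with mates, 15 had a sum that passed. Of the 15 that did not pass, the smaller fold had a median of 5.28 and ran from 0.585 in CL12442 to 7.44 in CL2891. In 31 of the 32 clusters the sum was still highest in roots, with CL12442 the exception. The sums contain the selected contigs' own values, which in CL6524 made up 957 of the 962 FPKM in roots and all of the leaf and stem sums.

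The 27 unigenes outside the rule for named unigenes were the more moderate part of the set. Their root FPKM had a median of 49.7, from 13.2 to 298, their leaf FPKM a median of 2.10, from 1.02 to 25.3, and their stem FPKM a median of 4.94, from 1.14 to 25.8. The smaller fold ran from 8.35 to 29.6 with a median of 11.3. Of the 27, 23 were lower in leaves than in stems, against 43 of all 57. The naming rule took out extremes of root level, fold and leaf over stem, so it shaped these values and this count.

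Scaling of the libraries changed the size of the set. FPKM is relative to the mapped fragments of a library, and the FPKM values summed to 684729 in roots, 745319 in leaves and 732443 in stems. Rescaling each library to the same sum (TPM) raised the ratio of roots to leaves by 8.85% and that of roots to stems by 6.97%. With the criteria applied to the TPM values, all 57 unigenes still passed, with 27 more, but a floor of 1 TPM is lower than a floor of 1 FPKM. With TPM ratios and the floor left at 1 FPKM, an alternative added after seeing the data, 8 more passed. Median-ratio scaling, which makes the typical shared unigene equal between tissues, raised the log2 ratio of roots to leaves by 0.55 and of roots to stems by 0.50. It retained 52 of the 57 and added 49, and the 5 that were lost fell to 1 or below in leaves after scaling. With these ratios and the floor left at 1 FPKM, all 57 passed with 51 more. With a pseudocount of 1 the folds of low unigenes shrink, and 45 of the 57 passed.

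**Figure D5:**
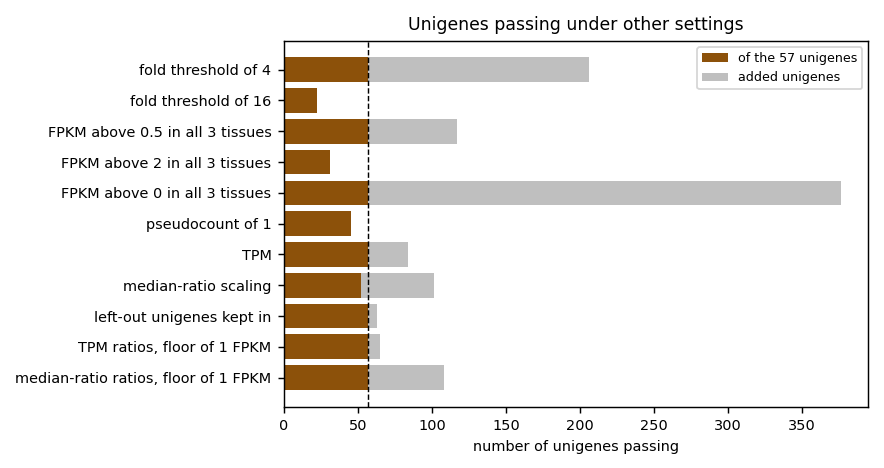
Number of unigenes that passed under each alternative criterion or scaling (x axis), split into those of the 57 (brown) and added ones (grey), with a dashed line at 57. A floor of 0 FPKM added 319 unigenes, and median-ratio scaling retained 52 and added 49.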

How the data were processed

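RNA of roots, leaves and stems was sequenced as 1 library per tissue from 5 pooled plants. The submitters' processing notes name Trimmomatic. The authors assembled the reads with Trinity 2.06 and TGICL 2.06, used Bowtie2 2.2.5 to map them to the assembly, and took expression from RSEM 1.2.12. They deposited FPKM values to 2 decimals. No genome was used.

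Unigenes were selected by the stated rule. Medians, folds, counts and cluster sums were then computed with Python 3.11.15 (matplotlib 3.10.9, scipy 1.17.1, numpy 2.4.6 and pandas 2.3.3). The code of the rule was checked on simulated data. Folds added there were far above the threshold and in well expressed unigenes, so the check says nothing about values near the thresholds. The members, lists and alternatives were chosen with earlier results of these data known. Named were the 10 members highest in root, the 10 with the largest smaller fold, the 3 on each side of the threshold, the 5 highest and 5 lowest in leaf over stem, all contigs of clusters with at least 2 members, and the most abundant mate of each named member's cluster.

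Without fragment counts or lengths, the counting error of single values is unknown. For unigenes between 0.3 and 0.8 FPKM in both libraries, the most frequent ratio of root to leaf was 0.94 (2303 unigenes) and of root to stem 0.96 (2626 unigenes); the range itself keeps these ratios near 1. Alternatives were other folds, floors, pseudocounts and scalings.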

Additional observations from a re-analysis of the deposited data

How the results depend on the processing

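The number of 57 unigenes depended on the criteria. It was 206 with a fold threshold of 4 and 22 with 16, 117 with FPKM above 0.5 in all 3 tissues, 31 with FPKM above 2 and 376 with FPKM above 0, and 101 after median-ratio scaling, or 108 with the floor left at 1 FPKM. TPM gave 84, or 65 with the floor left at 1 FPKM, a pseudocount of 1 gave 45, and keeping the left-out unigenes gave 63. Leaf FPKM was 2 times stem FPKM or more for 1 of the 57, and 1.5 times or more for 5. Stem FPKM was 2 times leaf FPKM or more for 23 with FPKM, TPM and median-ratio scaling, 16 with a pseudocount of 1, and 31 at 1.5-fold. Both alternatives with the floor left at 1 FPKM were added after seeing the data. The share of the root FPKM sum was 1.65% without CL10745.Contig3, an alternative added after seeing the data, against 2.49%. Of the mates 74.4% were highest in root, and 61.6% were at least 2-fold over leaf and stem with a pseudocount of 1. The cluster sums passed in 17 clusters, in 21 after median-ratio scaling and in 26 with a fold threshold of 4. The median root level and the median smaller fold moved by less than 1.5 times under TPM, median-ratio scaling and the left-out unigenes. No paired analysis was possible because each tissue had 1 library, and the lack of replicates and of fragment counts limits every value.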
